A study of Mus musculus with 24 samples.

Results

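The 35 mitosis genes described here are a fixed list of cyclins, mitotic kinases, checkpoint, kinetochore, spindle, cytokinesis and anaphase genes, found in the deposited table by gene symbol. All 35 were present among 55938 genes, on 36 rows, since the spindle motor Kif11 has rows under 2 identifiers, which were added together. The study sequenced RNA of 12 mouse gliomas that arose after PDGFB, a growth factor acting on precursor cells of the oligodendrocyte lineage, had been introduced into the telencephalic ventricles of embryos in the womb. Every animal carried the transferred PDGFB, and the labels give no other allele, strain or sex. Per brain, glioma cells sorted by fluorescence made 1 library and the surrounding, non-fluorescent cells another, 24 libraries in all. The marker is given as GFP in 11 tumours and as RED in tumour 3057E.

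The 6 groups hold 4 libraries each. The asymptomatic tumours 3228A, 3228B and 3228D were taken 33 days after transduction and 3229B at 34 days. The early symptomatic tumours were taken at 35 days (3145A), 43 days (3108C and 3108D) and 50 days (3109D). The late symptomatic tumours were taken at 100 days (3057E), 120 days (3054A) and 175 days (3054B and 3054C). The labels record symptoms and days, and the division into early and late follows the letters that end the sample labels. Stage, day and code prefix cannot be told apart, because no prefix occurs in more than 1 stage. Values of a group are given below in the order of the codes, 3228A, 3228B, 3228D and 3229B, then 3108C, 3108D, 3109D and 3145A, then 3054A, 3054B, 3054C and 3057E.

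Mitosis genes are transcribed late in the cell cycle, in G2 phase and in mitosis, and their RNA is low in cells that do not divide. In resting cells the DREAM complex represses them, mainly through a promoter element called the cell cycle genes homology region (CHR), and in dividing cells B-Myb and Foxm1 activate them through the same element. Many of these promoters also hold CCAAT boxes, bound by NF-Y, whereas genes of DNA replication are known for E2F elements. In the brain, oligodendrocyte precursor cells (OPC) are among the few cell types that keep dividing after birth.

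Promoters are shown because the mitosis genes moved together across the gliomas and 2 of them did not follow the rest between glioma and surrounding cells. RefSeq promoters of 300 bases, from 250 bases before to 50 bases after the transcript start in GRCm38.p6, were found for 29 of the 35 genes (30 promoters). In the sequences below, capitals mark the CHR (TTTGAA or TTCGAA) and the CCAAT box (CCAAT), on either strand. Ccnb2 lies at chr9:70421505-70421804 (minus strand), Cenpf at chr1:189688037-189688336 (minus strand) and Aspm at chr1:139454523-139454822 (plus strand). Ube2c lies at chr2:164769679-164769978 (plus strand) and Mki67 at chr7:135716330-135716629 (minus strand). The genes that were lower in glioma cells are Anln at chr9:22389157-22389456 (minus strand) and Pttg1 at chr11:43425932-43426231 (minus strand).
Ccnb2: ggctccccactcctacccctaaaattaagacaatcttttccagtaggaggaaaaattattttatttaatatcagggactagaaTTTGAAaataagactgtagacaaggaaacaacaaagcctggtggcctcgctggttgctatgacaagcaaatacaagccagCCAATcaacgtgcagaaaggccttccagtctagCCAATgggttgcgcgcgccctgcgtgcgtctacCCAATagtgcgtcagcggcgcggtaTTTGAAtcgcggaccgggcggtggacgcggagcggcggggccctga
Cenpf: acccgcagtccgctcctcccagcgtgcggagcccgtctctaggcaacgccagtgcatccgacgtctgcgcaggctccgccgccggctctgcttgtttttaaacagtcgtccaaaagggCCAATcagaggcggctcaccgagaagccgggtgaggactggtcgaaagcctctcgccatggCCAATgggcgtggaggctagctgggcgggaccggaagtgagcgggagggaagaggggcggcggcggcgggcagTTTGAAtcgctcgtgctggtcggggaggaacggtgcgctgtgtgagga
Aspm: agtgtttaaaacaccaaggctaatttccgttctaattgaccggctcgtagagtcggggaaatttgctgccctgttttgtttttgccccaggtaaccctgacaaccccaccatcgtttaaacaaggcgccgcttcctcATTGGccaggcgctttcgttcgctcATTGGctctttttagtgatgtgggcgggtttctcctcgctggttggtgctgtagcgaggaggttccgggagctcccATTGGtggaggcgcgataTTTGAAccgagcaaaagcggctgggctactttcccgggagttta
Ube2c: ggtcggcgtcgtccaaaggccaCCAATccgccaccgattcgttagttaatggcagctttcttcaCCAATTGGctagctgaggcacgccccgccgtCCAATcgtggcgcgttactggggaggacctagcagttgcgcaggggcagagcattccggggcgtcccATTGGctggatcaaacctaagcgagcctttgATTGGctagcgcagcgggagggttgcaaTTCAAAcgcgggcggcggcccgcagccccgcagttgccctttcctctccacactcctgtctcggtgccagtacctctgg
Mki67: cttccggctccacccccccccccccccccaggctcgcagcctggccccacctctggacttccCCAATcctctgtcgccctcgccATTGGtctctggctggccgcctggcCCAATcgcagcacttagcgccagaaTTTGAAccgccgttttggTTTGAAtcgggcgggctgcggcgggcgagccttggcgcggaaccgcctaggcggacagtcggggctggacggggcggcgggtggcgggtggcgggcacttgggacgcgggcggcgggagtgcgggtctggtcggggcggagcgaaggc
Anln: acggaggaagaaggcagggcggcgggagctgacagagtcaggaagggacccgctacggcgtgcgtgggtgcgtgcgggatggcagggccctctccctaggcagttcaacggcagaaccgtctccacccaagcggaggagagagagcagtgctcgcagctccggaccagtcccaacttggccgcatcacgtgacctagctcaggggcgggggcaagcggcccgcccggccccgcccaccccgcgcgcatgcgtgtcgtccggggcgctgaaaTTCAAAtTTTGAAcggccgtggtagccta
Pttg1: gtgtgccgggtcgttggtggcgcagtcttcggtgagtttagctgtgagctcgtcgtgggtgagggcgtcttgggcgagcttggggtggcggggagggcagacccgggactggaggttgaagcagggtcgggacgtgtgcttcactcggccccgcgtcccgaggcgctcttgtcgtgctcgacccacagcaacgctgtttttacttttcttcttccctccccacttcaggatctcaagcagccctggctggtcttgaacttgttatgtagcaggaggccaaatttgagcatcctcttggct

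A CHR stands 4 bases after the start in Ccnb2, 2 bases after it in Cenpf and 6 bases after it in Aspm, each with CCAAT boxes before it. Ube2c holds a CHR 29 bases before the start and 6 CCAAT boxes counted on both strands, of which a pair overlaps as CCAATTGG. Mki67 holds 2 CHR and 3 CCAAT boxes, all upstream. Anln holds 2 CHR within the transcript, at 21 and 28 bases, and no CCAAT box. Pttg1 holds neither in this window.

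Over the 30 promoters of mitosis genes, 80.0% held a CHR, against 19.2% of all 32851 RefSeq mouse promoters of the same length. A CCAAT box was in 76.7% of the mitosis gene promoters, against 37.4% of all promoters, and both elements together in 70.0% of them, against 7.52% of all promoters. The E2F letters TTCCCGC or TTGGCGC, also read on both strands, were in 3 of the 30 mitosis gene promoters, against 6.81% of all promoters. A list of 100 other mitosis genes, with 94 promoters, held a CHR in 56.4% and both elements in 39.4%. A list of 37 DNA replication genes, with 34 promoters, held a CHR in 17.6% and E2F letters in 50.0%. Birc5, Nuf2, Nusap1 and Pttg1 were without a match to any of the 3 motifs. Kif2c and Ndc80, like Anln, held a CHR and no CCAAT box. Birc5, Nuf2, Nusap1, Kif2c and Ndc80 were higher in glioma, unlike Pttg1 and Anln. These are letter matches in 1 window and were not tested.

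**Figure D1:**
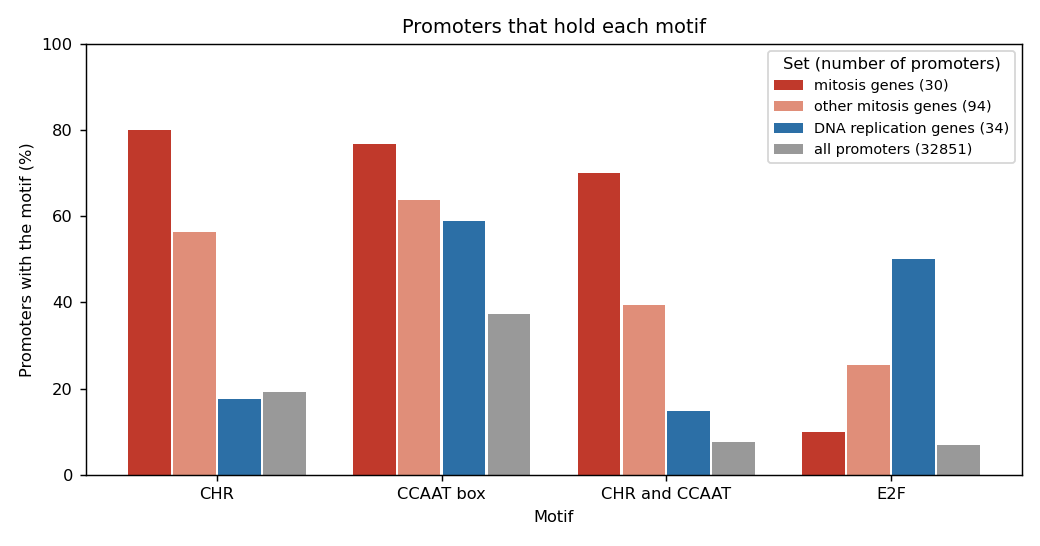
Share of promoters (percent, vertical axis) that hold the CHR, the CCAAT box, both or the E2F letters, for the mitosis genes, other mitosis genes, DNA replication genes and all promoters, with the number of promoters in the legend. The CHR stands at 80.0% in the mitosis genes and at 17.6% in the DNA replication genes, and E2F letters at 50.0% in the DNA replication genes and at 6.81% in all promoters.

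Totals ranged from 9.08e+06 to 1.55e+07 counts per library. The mitosis genes took from 0.0754% to 0.729% of the counts of a glioma library, and from 0.0639% to 0.196% of those of a surrounding library. All 35 passed the filter on low counts in each fit, so no gene of the list was left out. OPC markers, 10 genes that include Pdgfra and Olig2, summed to 12771 to 21000 CPM, counts scaled to library size, in glioma libraries and to 762 to 15005 CPM in surrounding libraries, so OPC markers were present in both. The 14 microglia markers summed to 61.7 to 814 CPM in the glioma libraries other than 3057E, to 2617 CPM in glioma 3057E, and to 2137 to 22325 CPM in surrounding libraries, with no marker at 0 in all libraries of a group. Glioma 3057E therefore stood apart in microglia markers as well as in the marker protein of its label, and results are given with and without it. Xist and Ddx3y, read to check the codes, disagreed between the glioma and surrounding libraries of 3108D and of 3109D, where each glioma matched the surrounding library of the other code. In the other 10 codes Xist matched, and Ddx3y matched in all but 3054C, where it stood at 2.96 CPM in glioma and 93.2 CPM in surrounding cells. Sex was not balanced over the stages. In bulk RNA of this kind, fewer dividing cells and less mitosis RNA per dividing cell cannot be told apart.

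Levels per length, in CPM per kilobase of exon, placed the chromosome surface protein Mki67 first in glioma cells, with a median of 43.1 over 12 libraries, followed by the DNA topoisomerase Top2a at 34.6, cyclin A2 (Ccna2) at 31.8 and the spindle assembly factor Tpx2 at 31.1. The lowest were the central spindle motor Kif23 at 2.91 and securin (Pttg1) at 1.95. Neighbours in this order differed by far less than the spread over libraries: the highest glioma library was 4.23 times the lowest for Pttg1, 20.5 times for Mki67, and 9.15 times in the median gene. In surrounding cells the same ratio had a median of 3.47 and a range of 2.18 to 6.19.

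**Figure D2:**
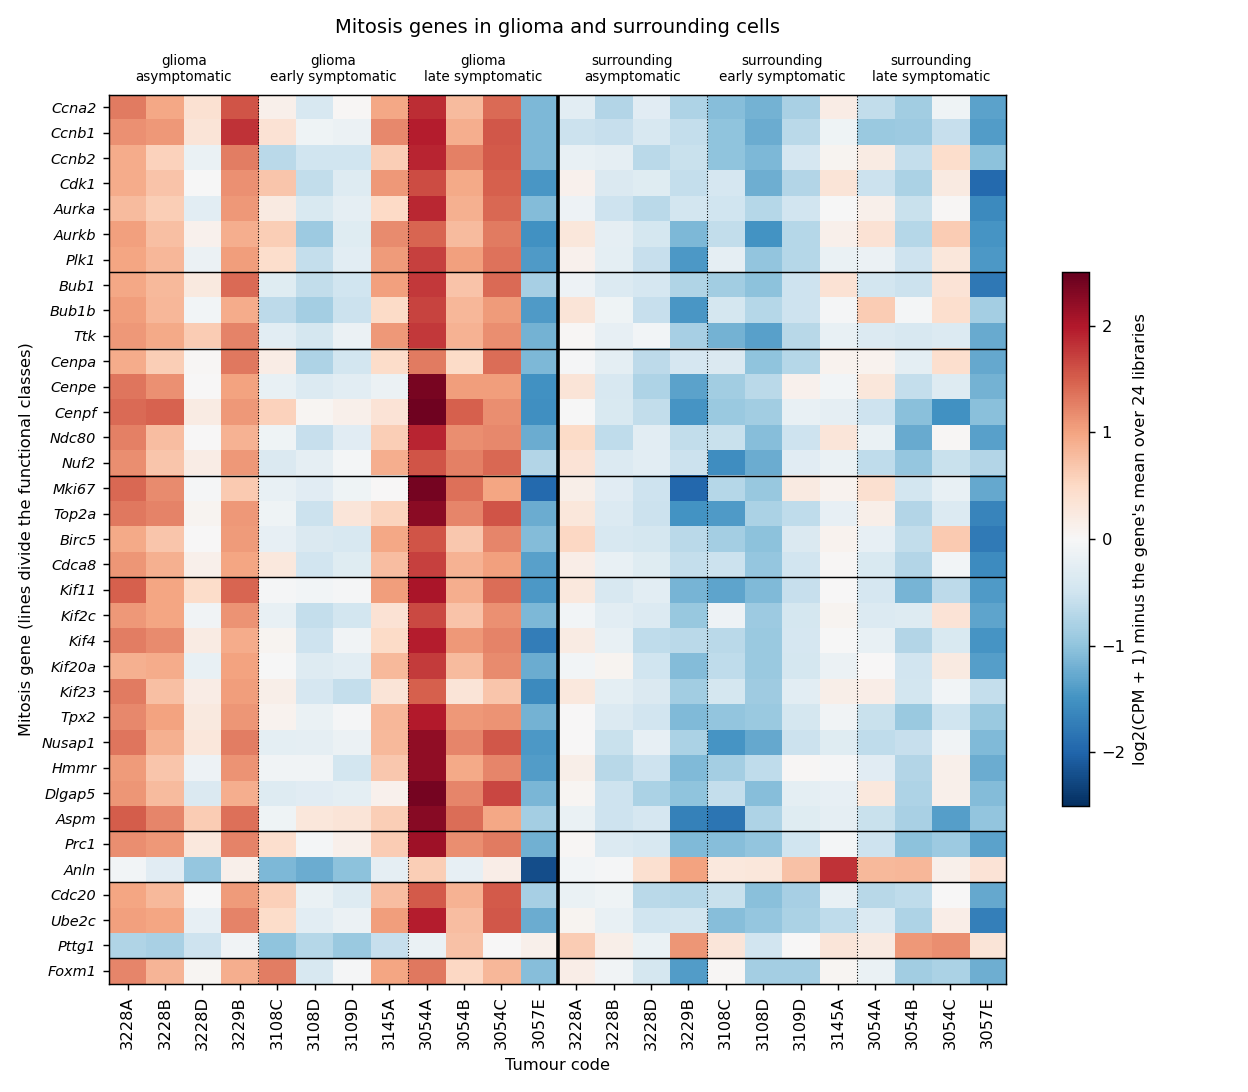
Level of each of the 35 mitosis genes (rows, divided by functional class) in each library (columns, glioma left, surrounding right), as log2(CPM + 1) minus the mean of the gene over 24 libraries. Most rows are red in glioma 3054A and blue in glioma 3057E, and Anln and Pttg1 run against the other rows between the populations.

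Glioma cells held more mitosis RNA than the surrounding cells from the same brains. Of the 35 genes, 32 were higher, where 22% of all 18808 genes tested were higher, and 2 were lower, where 24.2% of all genes were. The median log2 fold change was 1.15 over the list and 0.06 over all genes tested. This used edgeR's quasi-likelihood test on 24 libraries, with Benjamini-Hochberg adjusted p over all genes tested, called below 0.05. With 1 tumour left out at a time, 30 (without 3229B) to 35 genes (without 3057E) were called, where 39.8% to 51% of all genes were.

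All 7 cyclins and mitotic kinases were higher in glioma. Cyclin B1 (Ccnb1), the partner with which Cdk1 starts mitosis, stood at 124, 120, 69.8 and 197 CPM in asymptomatic, 71.8, 52.2, 50.6 and 130 CPM in early and 222, 106, 167 and 25.3 CPM in late symptomatic gliomas. In surrounding cells it stood at 38.1, 37.0, 42.0 and 36.9 CPM in asymptomatic, 27.4, 23.1, 34.5 and 52.1 CPM in early and 28.9, 29.3, 37.1 and 20.6 CPM in late symptomatic brains. The populations did not overlap in the asymptomatic stage, where 10.8% of all genes had every glioma above every surrounding library. For Ccnb1 they overlapped slightly in the early stage, and in the late stage only through glioma 3057E. Its log2 fold change was 1.68 ± 0.26 (SE, adjusted p = 1.74e-05), and that of Ccna2, which acts in S phase and G2, was 1.43 ± 0.26 (adjusted p = 0.000135). Cdk1 itself (1.16 ± 0.31), Plk1 (1.16 ± 0.30), Aurka (1.07 ± 0.27), Aurkb (1.02 ± 0.33) and Ccnb2 (1.0 ± 0.28) were higher by less. Reads of Ccnb1 could be shared with 5 near-identical pseudogenes, of which Ccnb1-ps aligned at 99.2% over 1287 bases and had 1639 counts against 21482 for Ccnb1.

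Of the spindle checkpoint kinases, Ttk (1.34 ± 0.27) and Bub1 (1.14 ± 0.29) were higher in glioma. Bub1b was the only gene of the list that missed the threshold, at 0.66 ± 0.28 (adjusted p = 0.0591). With both libraries of a brain paired by tumour code all 35 genes were called, 33 of them higher, where 28.6% of all genes were, and 2 lower, where 25.8% were. Limma voom also called 33 higher and 2 lower, where 30% of all genes were higher and 27.2% lower. All 5 centromere and kinetochore genes were higher, led by Cenpf at 1.64 ± 0.28 (adjusted p = 6.58e-05) and Nuf2, a subunit of the microtubule-binding Ndc80 complex, at 1.25 ± 0.24. The centromeric histone Cenpa had the smallest change of the 5, 0.84 ± 0.26. Ndc80 was at 1.06 ± 0.29 and the kinetochore motor Cenpe at 1.05 ± 0.30.

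Mki67, the most used marker of dividing cells, had a fold change below the median of the list and the widest spread over gliomas. It stood at 913, 764, 328 and 529 CPM in asymptomatic, 295, 275, 311 and 338 CPM in early and 1762, 867, 665 and 85.9 CPM in late symptomatic gliomas. In surrounding cells it stood at 371, 276, 233 and 85.3 CPM in asymptomatic, 204, 174, 390 and 357 CPM in early and 444, 244, 295 and 138 CPM in late symptomatic brains. The 2 populations overlapped in every stage. The log2 fold change was 1.03 ± 0.33 (adjusted p = 0.0129), and the call was lost without tumours 3108D and 3109D (1.0003, adjusted p = 0.0678). Top2a, which untangles sister chromatids, was at 1.37 ± 0.30, and Cdca8 (1.09 ± 0.26) and Birc5 (0.91 ± 0.30), subunits of the chromosomal passenger complex with Aurkb, were higher too.

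All 10 spindle and motor genes were higher in glioma, from 0.75 ± 0.25 for Kif23 to 1.69 ± 0.26 for Aspm (adjusted p = 1.95e-05), a spindle pole protein whose human gene is mutated in microcephaly. Aspm averaged 139 ± 79.6 CPM in glioma and 41.3 ± 14.4 CPM in surrounding cells (SD, n = 12 each). Tpx2 was at 1.35 ± 0.24 (adjusted p = 9.13e-05) and Nusap1 at 1.43 ± 0.28. The motor Kif11, which pushes spindle poles apart, was at 1.51 ± 0.28, and 1.54 in its larger row alone. The microtubule binding proteins Hmmr (1.12 ± 0.29) and Dlgap5 (1.15 ± 0.29) and the motors Kif4 (1.20 ± 0.28), Kif20a (1.02 ± 0.27) and Kif2c (0.89 ± 0.26) lay between these. Of the anaphase genes, Cdc20 (1.28 ± 0.24), which activates the anaphase promoting complex, and Ube2c (1.38 ± 0.28), its ubiquitin-conjugating enzyme, were higher, and so was the transcription factor Foxm1 (1.18 ± 0.26).

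**Figure D3:**
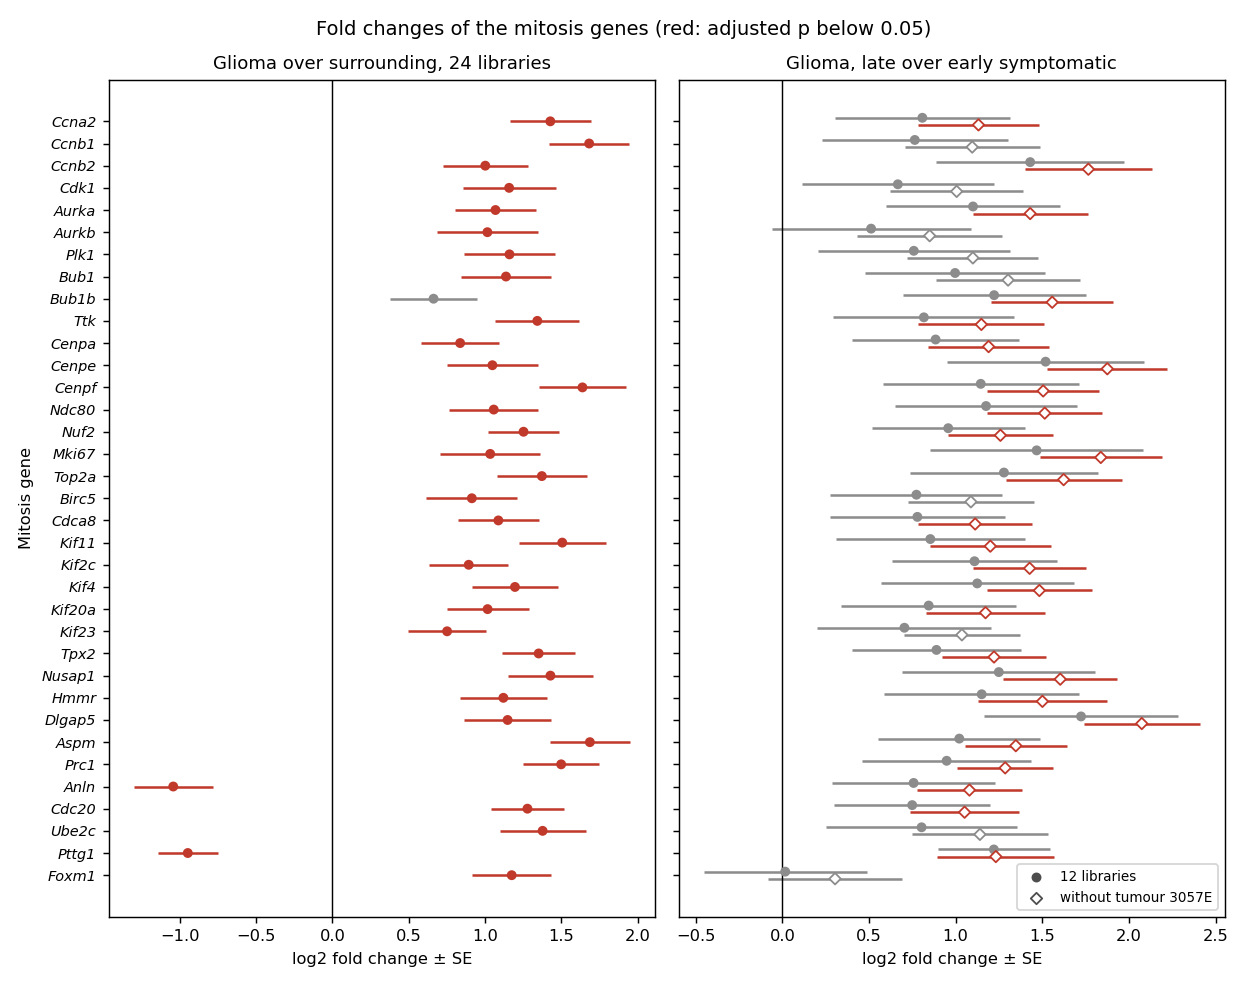
Log2 fold change with SE of each mitosis gene, for glioma over surrounding cells in 24 libraries (left) and for late over early symptomatic glioma (right, circles for 12 libraries and open diamonds without tumour 3057E), red where adjusted p was below 0.05. On the left 32 genes are red to the right of 0 and Anln and Pttg1 to the left of it, and on the right no circle but 26 diamonds are red.

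Cytokinesis genes split. Prc1, which bundles microtubules of the central spindle, was higher in glioma at 1.5 ± 0.25 (adjusted p = 3.90e-05). Anln, a scaffold of the contractile ring, was lower at -1.04 ± 0.26 (adjusted p = 0.00229). Anln stood at 52.1, 45.3, 27.7 and 59.8 CPM in asymptomatic, 24.7, 22.6, 26.4 and 46.8 CPM in early and 84.5, 47.4, 61.6 and 11.01 CPM in late symptomatic gliomas. In surrounding cells it stood at 52.7, 53.9, 72.8 and 112 CPM in asymptomatic, 66.0, 66.7, 92.0 and 195 CPM in early and 97.0, 99.1, 60.1 and 70.2 CPM in late symptomatic brains. The early symptomatic populations did not overlap, where 14.2% of all genes had every glioma below every surrounding library. The other stages overlapped.

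Within glioma, Anln still followed the list closely. Over 12 glioma libraries its log2 level and the mean of the other 34 genes had r = 0.99 (Spearman 0.986, and r = 0.984 without 3057E). Over the 12 surrounding libraries the same r was 0.0762 (Spearman -0.168), against a median of 0.844 for the 35 genes there. Anillin is also known as a component of central nervous system myelin in mice. The 8 mature oligodendrocyte markers, among them Mbp and Mog, summed to 335 to 3169 CPM in glioma and to 1616 to 29537 CPM in surrounding libraries, with none at 0 in all libraries of a group. The r of Anln with their mean log2 level was 0.494 in surrounding and 0.18 in glioma libraries (n = 12 each), and Spearman 0.406 and 0.105. Without the libraries farthest from the median marker level, the r of Anln was 0.407 in surrounding cells. There r was 0.56 for Ccnb1, 0.546 for Ndc80 and 0.517 for Ccna2, all higher in glioma, and below 0.407 for most other genes. Over all 12 surrounding libraries r was 0.334 for Ccnb1, 0.116 for Ndc80 and 0.0456 for Ccna2, each below the 0.494 of Anln. The Spearman value of Nuf2, 0.441, was above the 0.406 of Anln. The part of these markers in the difference was not tested. All these points share libraries and scaling, so the correlations are descriptions.

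**Figure D4:**
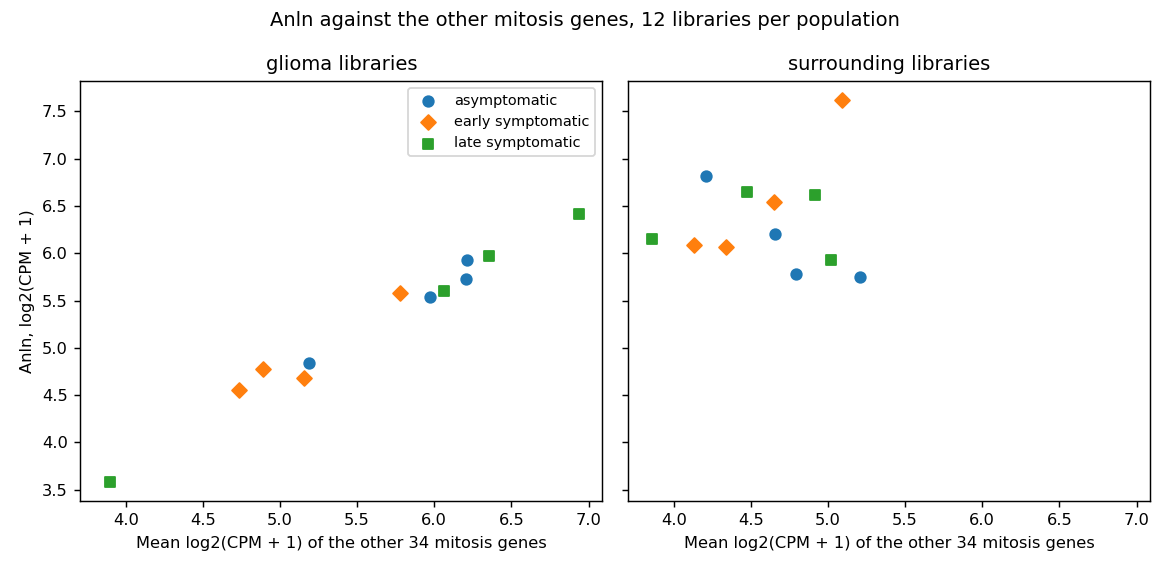
Level of Anln against the mean of the other 34 mitosis genes, both as log2(CPM + 1), in 12 glioma libraries (left) and 12 surrounding libraries (right), with the stage as the symbol. Glioma points lie along a line (r = 0.99) and surrounding points do not (r = 0.0762).

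Pttg1, which encodes securin, the inhibitor of separase until anaphase, was the other gene lower in glioma, at -0.95 ± 0.20 (adjusted p = 0.000489). It stood at 3.23, 3.11, 3.98 and 5.77 CPM in asymptomatic, 2.58, 3.38, 2.76 and 3.82 CPM in early and 5.41, 10.9, 6.21 and 6.79 CPM in late symptomatic gliomas. In surrounding cells it stood at 10.05, 6.91, 5.40 and 14.4 CPM in asymptomatic, 7.78, 4.16, 6.25 and 7.83 CPM in early and 7.31, 14.2, 15.1 and 7.95 CPM in late symptomatic brains. The populations overlapped in the asymptomatic and late stages and not in the early one, where 14.2% of all genes were likewise lower in every glioma. These levels rest on 29 to 175 counts per library. Over the 12 glioma libraries its r with the mean of the other genes was 0.194, by far the lowest of the list, and 0.54 without 3057E.

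Taken 1 stage at a time, the excess in glioma was called in 7 genes in asymptomatic, 0 in early and 28 in late symptomatic tumours. In the asymptomatic tumours the 7 genes stood against a background in which 1.3% of all genes were higher, and Pttg1 was lower (-1.19 ± 0.34, adjusted p = 0.0216), where 12.5% of all genes were. The 7 were Aspm (1.84 ± 0.46, adjusted p = 0.00789), Ccnb1 (1.73 ± 0.45), Ccna2 (1.63 ± 0.46), Cenpf (1.67 ± 0.49), Tpx2 (1.38 ± 0.42), Prc1 (1.4 ± 0.43) and Kif11 (1.48 ± 0.49). The larger row of Kif11 alone was not called (1.48, adjusted p = 0.0876). Mki67 was at 1.39 ± 0.57 (adjusted p = 0.117) and was called with the tumour code as a block (1.47, adjusted p = 0.031), Anln was at -0.65 and the median of the list was 1.23. For 13 genes all 4 gliomas stood above all 4 surrounding libraries, where 10.8% of all genes did. The calls moved with the fit: with the tumour code as a block, which pairs both libraries of a brain, 32 genes were higher, where 4.41% of all genes were. In the fit without pairs, 29 genes were higher without 3057E, where 3.13% of all genes were, and 4 without 3228D, where 0.482% were. Without 3228A and without 3228B 1 gene was higher, where 0.166% and 0.362% of all genes were, and without 3229B it was 0, where 0.078% were.

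In the early symptomatic tumours 0 genes were higher in glioma by edgeR, where 1.06% of all genes were, and 2 were lower, where 12.4% of all genes were. The 2 were Anln (-1.80 ± 0.46, adjusted p = 0.00834) and Pttg1 (-1.05 ± 0.35, adjusted p = 0.0476). DESeq2 and limma voom called 0 higher and 2 lower each, where 7.58% and 14.1% of all genes were lower. The median of the list was 0.67, with Ube2c at 1.27 ± 0.49, Ccnb1 at 1.15 ± 0.45, Cdc20 at 0.97 ± 0.41, Ttk at 1.09 ± 0.48 and Mki67 at 0.12 ± 0.56. Cenpf, Nusap1, Aspm and Ube2c had all 4 gliomas above all 4 surrounding libraries, where 7.91% of all genes did. The block called 3 genes higher and 2 lower, where 2.8% and 12.5% of all genes were. Without 3057E, 6 were higher and 2 lower, where 3.14% and 14.2% of all genes were. Without each of 3054C, 3108C, 3108D, 3109D, 3145A, 3228A, 3228B and 3228D, 0 were higher and 1 was lower, and over all 12 tumours left out in turn 8.8% to 14.2% of all genes were lower. Mki67 turned to -0.010 without 3108D.

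In the late symptomatic tumours 28 genes were higher in glioma and 0 lower, where 15.4% and 19.9% of all genes were, with a median log2 fold change of 1.64. The smallest p belonged to Prc1 (2.19 ± 0.44, adjusted p = 0.000659), Aspm (2.25 ± 0.47), Cenpf (2.44 ± 0.51), Ccnb1 (2.17 ± 0.46), Nuf2 (1.87 ± 0.42) and Tpx2 (1.86 ± 0.42), and Mki67 was at 1.59 ± 0.57 (adjusted p = 0.0349). The Mki67 call was lost without each of 3054A (1.26, adjusted p = 0.139), 3054B, 3054C, 3145A and 3228B, and without 3108D and 3109D together (1.51, adjusted p = 0.0767). It was also lost with size factors of DESeq2 (1.46, adjusted p = 0.0509), without a filter on low counts (1.60, adjusted p = 0.0787) and with the tumour block when the codes 3108D and 3109D were exchanged (1.12, adjusted p = 0.0535). Anln (-0.67 ± 0.45) and Pttg1 (-0.60 ± 0.34) had the opposite sign and were not called. The count was 11 without 3054A and 16 without 3054B, where 7.54% and 7.14% of all genes were higher, and no gene had every glioma above every surrounding library, as 9.22% of all genes had. Glioma 3057E, with a mean level of 3.89, lay below all surrounding libraries of the stage.

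Brain by brain, the mean log2(CPM + 1) of the 35 genes was 1.95 higher in glioma than in surrounding cells of 3054A, 1.92 in 3229B, 1.51 in 3054B, 1.296 in 3054C and 1.14 in 3228B. It was 0.97 higher in 3228A, 0.76 in 3108C, 0.61 in 3145A, 0.54 in 3108D, 0.48 in 3228D and 0.18 in 3109D, and -0.04 in 3057E. From 24 to 34 of the 35 genes were higher in glioma in the 11 brains other than 3057E, and 19 in 3057E. In 3229B the mean level was 6.20 in glioma, next to 6.19 in glioma 3228A, and 4.29 in surrounding cells, the lowest of the asymptomatic brains. Surrounding 3057E had the lowest microglia marker sum of the surrounding libraries, 2137 CPM, and an OPC marker sum of 12866 CPM, where the other late surrounding libraries had 762 to 4596 CPM. The part of these in the small difference of 3057E was not tested. The pairs 3108D and 3109D rest on codes that the check above put in doubt.

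**Figure D5:**
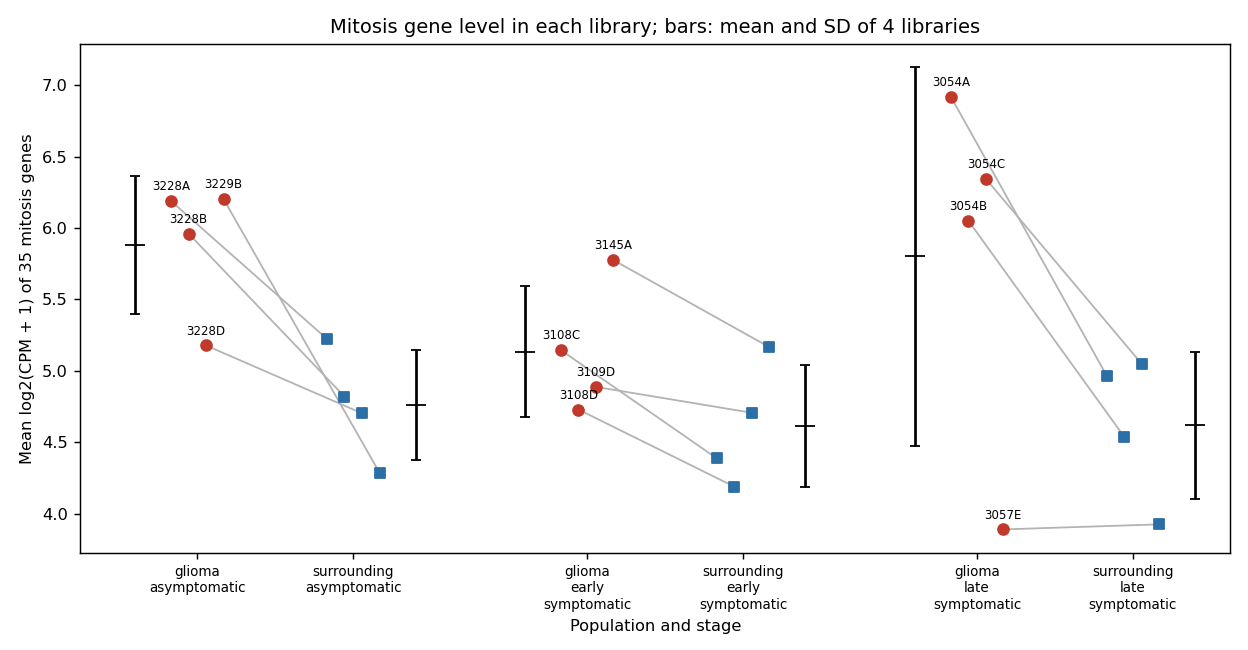
Mean log2(CPM + 1) of the 35 mitosis genes in each glioma library (circles, with tumour codes) and surrounding library (squares) by stage, lines joining libraries of 1 code, bars the mean and SD of 4 libraries. Glioma 3054A is highest at 6.92, glioma 3057E lowest at 3.89, and the surrounding libraries lie between 3.92 and 5.22.

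Across the gliomas the list rose and fell as 1 block. Mean levels ran from 6.92 in 3054A, 6.34 in 3054C, 6.20 in 3229B, 6.19 in 3228A, 6.05 in 3054B, 5.96 in 3228B and 5.77 in 3145A down to 5.18 in 3228D, 5.14 in 3108C, 4.89 in 3109D, 4.73 in 3108D and 3.89 in 3057E. Of the 35 genes, 33 were highest in 3054A and 34 were lowest in 3057E, the exception being Pttg1, lowest in 3108C. The r of a gene with the mean of the others had a median of 0.972 and exceeded 0.8 for 34 of 35 genes. Foxm1, which activates many of the others, was at 0.836. Glioma 3108C held 105 CPM of Foxm1, close to the 109 CPM of 3054A, with a mean mitosis level among the lower ones.

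The late symptomatic stage held both ends of this order. In glioma, late over early symptomatic, edgeR called 0 of the 35 genes, where 0.273% of all 16492 genes tested were called. All 35 fold changes were above 0, with a median of 0.95 against 0.04 over all genes. DESeq2 called 2 genes, where it called 2.88% of all genes, and limma voom 17, where it called 15.7%. The smallest p belonged to Pttg1 (1.22 ± 0.32, adjusted p = 0.100), the only 1 of the 35 genes with all 4 late above all 4 early gliomas, where 3.17% of all genes did. It was followed by Dlgap5 (1.72 ± 0.56, adjusted p = 0.142), Cenpe (1.52 ± 0.57), Ccnb2 (1.43 ± 0.54), Mki67 (1.47 ± 0.61), Top2a (1.28 ± 0.54) and Kif2c (1.11 ± 0.48). Foxm1 was at 0.02 ± 0.47.

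Without tumour 3057E, 26 of the 35 genes rose in late relative to early symptomatic glioma, where 8.59% of 16935 genes did. Their log2 fold changes ran from 1.05 to 2.07, with Dlgap5 at 2.07 ± 0.34 (adjusted p = 0.00201), Cenpe at 1.87 ± 0.35 and Mki67 at 1.84 ± 0.35 (adjusted p = 0.00509). Foxm1, at 0.30 ± 0.39 (adjusted p = 0.612), was the furthest from the threshold of the 9 genes not called. Without 3054A, the highest glioma, 0 genes were called, where 0.0411% of all genes were. The median was then 0.50, with Mki67 at 0.80, Cenpe at 0.80, Top2a at 0.79 and Dlgap5 at 1.20. In the late gliomas other than 3057E the lowest level was a median of 4.95 times that of 3057E, from 0.80 times for Pttg1 to 7.98 times. Glioma 3057E also had the highest microglia marker sum of the gliomas, 2617 CPM, where the other late gliomas had 61.7 to 114 CPM, with 0 of 14 markers at 0. Its 14 leukocyte markers summed to 157 CPM, with 9 of them at 0, against 1.52 to 18.98 CPM in the other gliomas, while its OPC marker sum of 16448 CPM lay within the range of the others. Their part in the low mitosis level was not tested.

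Between late symptomatic and asymptomatic gliomas no mitosis gene passed. By edgeR 0 of 35 genes were called, where 0.158% of all genes were called, with a median of 0.24. DESeq2 called 0 and limma voom 1, where they called 1.81% and 18% of all genes. Pttg1 was at 0.87 ± 0.32 (adjusted p = 0.230), Dlgap5 at 0.80 ± 0.54, Aurka at 0.51 ± 0.50, Ccnb2 at 0.51 ± 0.53, Hmmr at 0.46 ± 0.56, Mki67 at 0.42 ± 0.60 and Top2a at 0.39 ± 0.53. Kif23 (-0.29), Foxm1 (-0.18), Ccna2 (-0.04) and Ttk (-0.0028) had the opposite sign. Without 3054A the median was -0.25 and without 3057E it was 0.57, when 1 gene was called, where 14.7% of all genes were.

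In early symptomatic over asymptomatic glioma all 35 fold changes were below 0, with a median of -0.82, but edgeR called 0, as it did of all genes (0%). DESeq2 and limma voom called 0, and of all genes they called 0% and 0.00606%. Kif2c was at -1.06 ± 0.48 (adjusted p = 0.936), Cenpe at -1.20 ± 0.56, Bub1b at -1.06 ± 0.53, Kif23 at -0.998 ± 0.50, Aspm at -0.92 ± 0.47, Cenpa at -0.88 ± 0.48 and Mki67 at -1.05 ± 0.61. Cenpe and Aspm had all 4 early below all 4 asymptomatic gliomas, 2 of 35 genes, where 2.6% of all genes did.

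Surrounding cells showed no called difference between stages. By edgeR, 0 of 35 genes were called in late over early symptomatic cells, where 1.48% of 17615 genes were called, and 0 in late over asymptomatic and in early over asymptomatic cells, where 0% of genes were. DESeq2 and limma voom called 0 in each. In late over early cells DESeq2 called 3.14% and limma voom 29.5% of all genes, in late over asymptomatic cells 2.84% and 23.3%, and in early over asymptomatic cells 0.0349% and 0%. In the same order of comparisons the medians were -0.03, -0.11 and -0.12. In late over early cells Pttg1 had the smallest p (0.74 ± 0.37), followed by Cenpf (-0.51 ± 0.32), Bub1b (0.54 ± 0.39), Prc1 (-0.36 ± 0.29), Foxm1 (-0.41 ± 0.36) and Ccnb2 (0.41 ± 0.36), with Mki67 at -0.03 ± 0.45. The 16 genes above 0 were Ccnb2, Aurka, Aurkb, Plk1, Bub1b, Ttk, Cenpa, Top2a, Birc5, Kif20a, Kif23, Nusap1, Dlgap5, Cdc20, Ube2c and Pttg1. In late over asymptomatic cells these were Nuf2 (-0.57 ± 0.32), Prc1 (-0.52 ± 0.29), Ccnb1 (-0.42 ± 0.25), Kif11 (-0.56 ± 0.36), Cenpf (-0.46 ± 0.31) and Bub1b (0.48 ± 0.39), with Mki67 at 0.22 ± 0.45. The 15 genes above 0 were Ccnb2, Aurka, Aurkb, Plk1, Bub1b, Cenpa, Cenpe, Mki67, Kif2c, Kif20a, Kif23, Hmmr, Dlgap5, Anln and Pttg1. In early over asymptomatic cells these were Ube2c (-0.60 ± 0.34), Ttk (-0.59 ± 0.36), Nuf2 (-0.52 ± 0.32), Nusap1 (-0.45 ± 0.31), Anln (0.54 ± 0.37) and Pttg1 (-0.48 ± 0.37), with Mki67 at 0.26 ± 0.45. The 10 genes above 0 were Aurka, Bub1, Cenpe, Cenpf, Mki67, Kif2c, Hmmr, Dlgap5, Anln and Foxm1.

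Whether the stages differed more in glioma than in surrounding cells was tested as an interaction. For late over early symptomatic, late over asymptomatic and early over asymptomatic, edgeR called 0 of 35 mitosis genes and 0% of all genes each. DESeq2 called 0 in each, and limma voom called 1, 0 and 0. Of all genes, DESeq2 called 0.12%, 0.0437% and 0.00273%, and limma voom 5.98%, 6.84% and 0%. The medians were 1.01, 0.43 and -0.59. In late over early the smallest p belonged to Cenpf (1.63 ± 0.68, adjusted p = 0.766), Cenpe (1.57 ± 0.72), Prc1 (1.29 ± 0.60), Dlgap5 (1.48 ± 0.70), Aspm (1.28 ± 0.63) and Ndc80 (1.38 ± 0.71), with Mki67 at 1.48 ± 0.80. Aurkb, at -0.0017, had the opposite sign. In late over asymptomatic they were Nuf2 (0.86 ± 0.57, adjusted p = 0.695), Prc1 (0.79 ± 0.60), Pttg1 (0.58 ± 0.48), Cenpf (0.77 ± 0.68), Ndc80 (0.73 ± 0.71) and Ube2c (0.60 ± 0.68), with Mki67 at 0.20 ± 0.79. Kif23, Bub1b, Cenpa, Aurkb, Kif2c and Anln had the opposite sign. In early over asymptomatic they were Cenpe (-1.32 ± 0.72), Anln (-1.15 ± 0.63), Kif2c (-1.14 ± 0.63), Mki67 (-1.28 ± 0.80), Kif23 (-0.94 ± 0.62) and Bub1b (-0.97 ± 0.69), each with an adjusted p of 0.99996. Pttg1 and Ube2c, both at 0.14, had the opposite sign. These tests did not show a stage difference particular to glioma cells.

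Other mitosis genes moved like the list between glioma and surrounding cells. Of 100, 82 were higher in glioma than in surrounding cells and 1 lower, with a median of 0.98, where 22% of all genes were higher and 24.2% lower. Ska2 (1.12 ± 0.15, adjusted p = 2.41e-06) and Zwint (0.78 ± 0.11), which act at the kinetochore, and the spindle protein Ckap2 (1.49 ± 0.21) had the smallest p. The kinetochore gene Cenpo was lower (-0.45 ± 0.15, adjusted p = 0.0172). Of 37 DNA replication genes, 20 were higher and 0 lower, against the same shares of all genes, with a median of 0.67. Rrm1 (0.97 ± 0.18), which supplies nucleotides, and Rfc3 (0.67 ± 0.14), a subunit of the clamp loader, were among those with the smallest p. In late over early symptomatic glioma 0 of either list were called, where 0.273% of all genes were. The medians were 0.66 for other mitosis and 0.80 for replication genes. Of the other mitosis genes there, Psrc1 (-1.13 ± 0.33, adjusted p = 0.120) had the smallest p and the opposite sign. It was followed by Cdkn3 (1.52 ± 0.45) and Cdc16 (0.83 ± 0.25).

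Mitosis and replication levels did not run fully in parallel. The r of a mitosis gene with the mean level of the replication genes had a median of 0.765 over the 12 gliomas. The mean mitosis level exceeded the mean replication level by 1.68 in glioma 3108C, by 1.37 in 3229B and by 1.33 in 3054A. It exceeded it by 0.25 to 0.97 in the other 8 gliomas apart from 3057E, where it was below it (-0.31). Glioma 3108C had the lowest replication level of the gliomas, 3.46, with a mitosis level of 5.14, and glioma 3057E had the lowest mitosis level, 3.89, with a replication level of 4.203.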

How the data were processed

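Expected counts per gene, deposited as 1 table, were estimated by the authors; the submitters' processing notes name STAR 2.7.5c, RSEM 1.3.1 and the build GRCm38. Per the labels' protocols, polyA RNA went into a total RNA library kit. Annotation release and strand setting are not given in the sources used here. Without strand, Ccna2, Kif20a, Kif4, Prc1, Ube2c, Nusap1, Plk1, Cdca8 and Cdc20, whose exons overlap antisense genes, are uncertain, as are Top2a and Foxm1, which overlap genes on the same strand, and Ccnb1, Cdc20, Mki67 and Ndc80, which have near-identical copies. Each code is read as 1 animal, as the labels' survival times imply.

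Expected counts were rounded. The rows of Kif11 and Nek2 were added, since RSEM placed up to 50% of Kif11 in its second identifier. Fits used edgeR 4.0.16 in R 4.3.3 (TMM, filter at 10 counts, robust quasi-likelihood test), on 24 libraries for populations and interactions and on 12 for stages. Adjusted p below 0.05 over all genes was called. SE comes from the F statistic, and CPM uses TMM over 24 libraries. The code was tested on simulated data. The labels give both libraries of a code the same animal, and the code is therefore a block in an alternative. Deviations from group means correlated at 0.0257 to 0.484 within codes, lowest for 3108D and 3109D, which matched each other best, and 3057E, at 0.116, matched 3054A best. Shares called by DESeq2 are over all genes with counts.

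Members and lists were chosen with earlier results of these data known. Tested differences are printed for Mki67, the 6 members with the smallest p and those of opposite sign to the median, and for the 3 smallest p and opposite calls of other lists, of which 1 gene is not reported here. Other mentions cover the whole list. Alternatives were DESeq2 1.42.0, limma 3.58.1 (voom, weighted samples), size factors of DESeq2, other count filters, no robust spread, all 24 libraries in 1 fit, each tumour left out, the tumour block, that block with 3108D and 3109D exchanged, and both left out. The larger Kif11 row alone was added after seeing the data.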

Additional observations from a re-analysis of the deposited data

Results flagged for a closer look

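In groups of 4 libraries, a value was singled out where its gap to the nearest other library divided by the group's range passed Dixon's critical value for 4 libraries, on the log2(CPM + 1) scale. Chance gives about 1 such value in 20 groups, and 9 of 228 groups of gene levels and list means passed. In asymptomatic glioma, 3228D was low for Kif2c (4.16, next library 5.24, gap 0.892 of the range), Kif20a (4.47, next 5.53, gap 0.897) and Prc1 (6.47, next 7.29, gap 0.846). In early symptomatic glioma, 3145A was high for Ccnb2 (5.33, next 4.22, gap 0.865), Birc5 (5.36, next 4.18, gap 0.86), Kif11 (7.25, next 6.18, gap 0.956) and Nusap1 (6.41, next 5.45, gap 0.915). In tumour 3057E, Nuf2 was low in late symptomatic glioma (4.59, next 6.58, gap 0.866) and Ttk was low in late symptomatic surrounding cells (2.43, next 3.30, gap 0.935). No mean of the list was singled out.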

How the results depend on the processing

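Over all stages 34 genes were called between glioma and surrounding cells, where 46.3% of all genes were. This count changed by less than 1.5 times in every alternative. With 1 tumour left out it was 30 to 35, where 39.8% to 51% of all genes were called. By stage the counts depended on the fit. The percentage in brackets is the share of all genes called in the same fit. In asymptomatic tumours 8 genes called (13.8%) became 13 with DESeq2 (8.94%), 33 with limma voom (28.9%), 4 without a filter on low counts (6.16%), 4 without 3108D and 3109D (11.6%), and 1 to 30 with 1 tumour left out (7.78% to 18.2%). With the tumour code as a replicate block, so that both libraries of a brain are paired, 33 were called (17.8%), and also 33 with 3108D and 3109D exchanged (19.9%). In early symptomatic tumours 2 (13.5%) became 1 without a filter (6.16%), 5 with the block (15.3%), 6 with the codes exchanged (17.1%), 0 without 3108D and 3109D (6.56%), and 1 to 8 with 1 tumour left out (8.96% to 17.3%). In late symptomatic tumours 28 (35.3%) became 11 to 30 with 1 tumour left out (21.9% to 42.8%). For late over early glioma 0 (0.273%) became 2 with DESeq2 (2.88%), 17 with limma voom (15.7%) and 0 to 26 with 1 tumour left out (0.0118% to 17.2%). For late over asymptomatic glioma 0 (0.158%) became 1 with limma voom (18%) and 0 to 1 with 1 tumour left out (0% to 14.7%), and the interaction of late over early became 1 with limma voom (5.98%) and 0 to 1 with 1 tumour left out (0% to 4.51%). In all other counts of calls the block and the alternatives changed nothing by over 1.5 times.

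The median for late over early glioma, 0.95, was 1.31 with limma voom, 0.61 without 3108D and 3109D, and 0.50 (without 3054A) to 1.23 (without 3057E) with 1 tumour left out, and that for early over asymptomatic glioma, -0.82, was -0.45 without these. Signs of small differences turned. For late over asymptomatic glioma, with 1 tumour left out, the median ran from -0.25 to 0.57, Ccna2 from -0.46 to 0.29, Foxm1 from -0.55 to 0.11, Hmmr from -0.17 to 0.81, Kif23 from -0.84 to 0.044, Mki67 from -0.26 to 0.79, Top2a from -0.11 to 0.74 and Ttk from -0.45 to 0.33, lowest without 3054A and highest without 3057E in each. There Ccna2 was 0.060 with limma voom, Ttk was 0.0021 with DESeq2, 0.088 with limma voom and 0.018 without a filter, and the larger Kif11 row alone gave -0.080. In surrounding cells, with 1 tumour left out, the medians ran from -0.18 to 0.20 (late over early), -0.32 to 0.13 (late over asymptomatic) and -0.38 to 0.041 (early over asymptomatic, 0.048 without 3108D and 3109D), and Mki67 from -0.36 to 0.19, -0.11 to 0.50 and -0.0056 to 0.53. The larger Kif11 row alone gave 0.12 for late over early. Mki67 in early symptomatic glioma over surrounding ran from -0.010 to 0.31, and its interaction of late over asymptomatic from -0.13 to 0.40, with -0.35 under the block in both pairings. The causes were not tested.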
